A study of Mus musculus with 32 samples.

Results

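The immunoproteasome and the peptide-loading machinery are described here in mouse brain through 8 genes named by symbol. They are the catalytic subunits Psmb8, Psmb9 and Psmb10, the activator subunits Psme1 and Psme2, the transporter subunits Tap1 and Tap2, and tapasin, Tapbp. Of these, 7 were among the 5582 genes of the deposited table and all 7 passed the filter on low counts, which kept 5371 genes. Psmb10 was not among the listed genes and was not analysed here. No cut on measured values picked the members, but they were chosen with earlier results of these data known. The authors had also chosen the table's genes by their own comparison of injured with sham animals. Injury calls on these members are therefore not independent of either choice.

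Proteasomes cut cytosolic proteins into peptides. Under interferon signalling, cells assemble a variant, the immunoproteasome, in which Psmb8, Psmb9 and Psmb10 take the places of the constitutive catalytic subunits Psmb5, Psmb6 and Psmb7, and the ring formed by Psme1 and Psme2 caps the barrel and speeds peptide release. Tap1 and Tap2 together pump the peptides into the endoplasmic reticulum, where tapasin holds the transporter beside empty MHC class I molecules and edits which peptide they keep. In the healthy brain these genes are known for low expression in neurons and for induction in microglia and other glia during inflammation.

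RNA was sequenced from mice on a C57BL/6 background in which the mouse Apoe gene was replaced on both copies by human APOE3 or human APOE4. Every animal had a craniotomy of 4.5 mm over the left parietal cortex; TBI (traumatic brain injury) animals also received 1 controlled cortical impact with a tip of 3 mm to a depth of 1 mm, and sham animals did not. Cortex and hippocampus of the injured region were pooled per animal on day 14. TBI was studied in 8 animals of each genotype and sham surgery in 7 of each, and the animals' age was not given in the sources used here. A pair of libraries whose labels contradicted each other on group was left out, leaving 30 animals. Each library held between 2262242 and 8606717 counts in these genes. All 32 libraries fell into 16 shallow ones of at most 3595246 counts and 16 deep ones of at least 4648345. Both libraries left out were shallow, so 14 shallow and 16 deep ones entered the comparisons, with both kinds in each group. How human APOE reads were counted was not given in the sources used here, and the mouse Apoe row, with 76 to 426 counts per library, does not check the genotype labels. Levels are given as CPM, counts scaled to a common total of the listed genes after TMM, a correction for library composition. As a check of the tissue, the neuronal gene Snap25 stood at 6410 ± 283 CPM (SD, n = 14 sham animals), the astrocyte gene Slc1a3 at 1489 ± 68.5 and the microglial gene Csf1r at 236 ± 22.1. No oligodendrocyte marker was analysed here.

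Psmb9, Tap1, Psmb8 and Tap2 lie side by side within 34292 bases of the MHC region on chromosome 17 (GRCm38.p6), from 34182030 to 34216321. Psmb9 runs on the minus strand and the other 3 on the plus strand. Tapbp lies on the same chromosome from 33919478 to 33929290, and Psme1 (55578494 to 55581527, plus strand) and Psme2 (55587440 to 55591101, minus strand) face each other across 5912 bases of chromosome 14. Psmb9 and Tap1 start back to back, with 225 bases between the annotated gene bodies. That stretch is shown because both genes start at its ends, and the windows of Psmb8 and Psme1 are shown because they were the members' only windows with a match to a motif searched. All are RefSeq promoter windows of GRCm38.p6 of 300 bases, 250 before and 50 after the annotated start. In the Tap1 window (chr17:34187306-34187605, plus strand) capitals mark the bases between the 2 gene bodies. In the Psmb8 window (chr17:34197945-34198244, plus strand) they mark a gamma-activated sequence, an element found in promoters of interferon-gamma target genes. In the Psme1 window (chr14:55578244-55578543, plus strand) they mark an interferon-stimulated response element, the kind bound by interferon regulatory factors, here read from the minus strand.
Tap1: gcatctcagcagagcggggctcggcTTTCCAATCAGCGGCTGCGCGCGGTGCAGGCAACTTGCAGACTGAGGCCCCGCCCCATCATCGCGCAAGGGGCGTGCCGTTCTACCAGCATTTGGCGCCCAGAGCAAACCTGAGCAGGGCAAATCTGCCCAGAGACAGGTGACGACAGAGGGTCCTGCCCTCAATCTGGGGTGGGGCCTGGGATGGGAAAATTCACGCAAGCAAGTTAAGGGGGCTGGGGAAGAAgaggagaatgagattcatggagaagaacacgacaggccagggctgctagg
Psmb8: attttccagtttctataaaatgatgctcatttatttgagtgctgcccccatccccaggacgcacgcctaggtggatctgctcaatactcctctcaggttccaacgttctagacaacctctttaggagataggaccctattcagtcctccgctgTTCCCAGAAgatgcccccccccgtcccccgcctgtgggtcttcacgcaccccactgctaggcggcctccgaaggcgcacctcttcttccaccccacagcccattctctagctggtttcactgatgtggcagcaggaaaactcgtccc
Psme1: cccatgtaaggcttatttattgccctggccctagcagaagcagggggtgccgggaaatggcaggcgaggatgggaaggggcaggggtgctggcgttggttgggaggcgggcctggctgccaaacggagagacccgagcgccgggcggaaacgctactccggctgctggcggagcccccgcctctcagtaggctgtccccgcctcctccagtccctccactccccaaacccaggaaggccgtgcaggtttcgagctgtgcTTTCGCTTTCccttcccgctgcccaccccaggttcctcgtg

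The motifs were searched on both strands as TTCNNNGAA for the gamma-activated sequence, as the run GAAA, then NN, then GAAA again, for the interferon-stimulated response element, and as the kappa B consensus. The Psmb8 and Psme1 windows held 1 match each, so no motifs overlapped there. The Psmb8 match began 97 bases before the annotated start (position -97), and the Psme1 match lay just after it, from position 10. TTCNNNGAA was found in 6.64% of the 5602 windows of the tested genes and in 8.3% of all 32851 windows, and the interferon-stimulated response element in 3.68% and 3.44%. The kappa B consensus, found in 6.5% of the tested genes' windows, was in none of the members' windows. A match describes letters and not a bound site, and a window without one shows only that these letters are not in it. Promoter windows were found for 7 of the 8 members, and Tap2 is named without a window.

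Injured and sham animals of both genotypes were compared first. All 7 were higher after TBI at an adjusted p under 0.05, in a table where 48.2% of the tested genes were called higher, 45.9% lower and 94.1% in either direction, so the count alone says little about these genes. The sizes of the rises differed widely, from 1.21-fold for Psme1 to 3.48-fold for Psmb8, with a median log2 difference of 0.69 beside 0.10 over all genes tested. In bulk tissue, more cells of a type and more RNA per cell cannot be told apart.

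By estimate, the catalytic subunits rose most. Psmb8, the immunoproteasome's chymotrypsin-like subunit, ran from 3.19 through a median of 5.04 to 7.05 CPM in the 14 shams, and from 7.56 through 16.8 to 27.9 CPM in the 16 TBI animals. The groups did not overlap, which held for 5.59% of the tested genes over the same animals. Its log2 difference was 1.80 ± 0.17 (SE, adjusted p = 1.27e-10), and 3% of the tested genes had a larger rise. Psmb9, which replaces Psmb6, ran from 0.337 through 2.06 to 3.52 CPM in sham and from 2.46 through 5.99 to 12.1 CPM after TBI. All but 1 TBI animal, an APOE4 animal at 2.46 CPM with 7 counts, lay above every sham. The log2 difference of Psmb9 was 1.68 ± 0.21 (adjusted p = 4.78e-08), on 1 to 20 counts per sham library, so its level in single sham animals is imprecise.

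**Figure D1:**
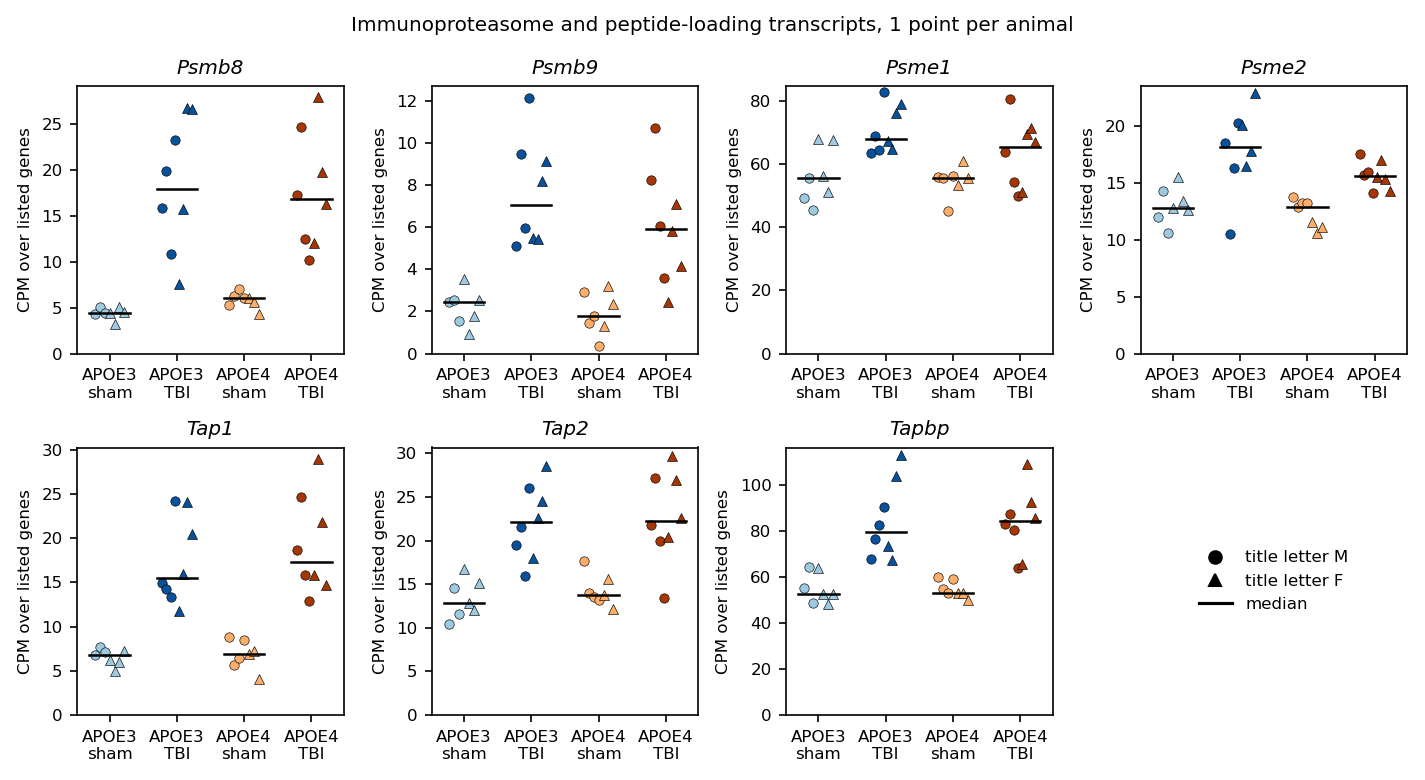
CPM over the listed genes (vertical axes, from 0) for the 7 members in the 4 groups, with 1 point per animal, shapes for the title letter and a bar at the median. For Psmb8 and Tap1 every TBI animal lies above every sham, whereas Psme1 and Psme2 overlap.

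Transport and loading genes followed by estimate, though the rises of Psmb9 and Tap1 were not shown to differ in the within-animal ratios below. Tap1, the transporter subunit that starts back to back with Psmb9, ran from 4.04 through 6.82 to 8.79 CPM in sham and from 11.8 through 15.9 to 29 CPM after TBI. There was again no overlap between the groups, and the log2 difference was 1.43 ± 0.13 (2.7-fold, adjusted p = 1.02e-10). Tap2, its partner in the transporter, rose less: it ran from 10.4 through 13.6 to 17.7 CPM in sham and from 13.4 through 22.2 to 29.7 CPM after TBI. In 14 of 16 TBI animals Tap2 lay above the highest sham, with a log2 difference of 0.69 ± 0.10 (1.62-fold, adjusted p = 2.73e-07). Tapbp ran from 48.3 through 53.1 to 64.5 CPM in sham and from 64 through 82.8 to 113 CPM after TBI. In 15 of 16 TBI animals Tapbp exceeded every sham, with a log2 difference of 0.61 ± 0.08 (1.52-fold, adjusted p = 4.28e-08). Tapbp overlaps the long non-coding gene Gm19412, and the strand setting of the counting was not given in the sources used here, so reads of the 2 genes may not be separable.

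The activator subunits rose least. Psme1 ran from 45 through 55.6 to 67.8 CPM in sham and from 49.9 through 67.1 to 82.8 CPM after TBI, and 7 of 16 TBI animals lay above the highest sham. Its log2 difference was 0.28 ± 0.07 (adjusted p = 0.000548). Psme2 ran from 10.6 through 12.8 to 15.5 CPM in sham and from 10.5 through 16.4 to 22.9 CPM after TBI. Of the TBI animals 11 lay above every sham, while an APOE3 TBI animal at 10.5 CPM lay below all of them. For Psme2 the log2 difference was 0.41 ± 0.08 (adjusted p = 4.68e-05), and it did not pass in the shallow libraries alone (0.32 ± 0.14, adjusted p = 0.0547). Psme1 overlaps the gene Emc9, and Psme2 has a similarly named copy, Psme2b, with which it may share reads, so both values are uncertain to that extent.

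Within-animal ratios were used to ask which rises differed in size. All 21 pairs of members were compared by the log2 ratio of the 2 genes in the same animal, TBI against sham, with a permutation test over animals (100000 permutations, 2-sided, adjusted over the 21 pairs); 17 pairs had an adjusted p under 0.05. These ratios are not per length, so only their change between groups is read. Tap1 rose more than Tap2, by 0.72 on the log2 scale: the ratio of Tap1 to Tap2 was -1.03 ± 0.28 in sham and -0.31 ± 0.21 after TBI (SD, adjusted p = 1.91e-05, from an unadjusted p of 1e-05, the smallest the permutations can give). Psmb8 rose more than Psme1 by 1.43 (adjusted p = 1.91e-05), and more than Tap1 by 0.30 (adjusted p = 0.0145). The last difference was 0.56 within APOE3 and 0.05 within APOE4 animals. Tapbp rose more than Psme2 by 0.21 (adjusted p = 0.0285). Among the other neighbours in the order of the rises, the ratio moved by 0.02 between Psmb8 and Psmb9 (adjusted p = 0.926), by 0.28 between Psmb9 and Tap1 (adjusted p = 0.277), by 0.08 between Tap2 and Tapbp (adjusted p = 0.266) and by 0.11 between Psme2 and Psme1 (adjusted p = 0.252). These 4 pairs were not shown to differ. The ratio of Psmb8 to Psmb9 turned with depth, moving by -0.35 in the shallow and 0.32 in the deep libraries. That of Psmb9 to Tap1 moved by 0.61 in the shallow and 0.03 in the deep libraries.

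Levels can be compared between genes only per length, here as CPM per kb of exon. In the 14 shams Psme1 was highest at 49.8 ± 6.15 CPM per kb (SD), followed by Tapbp (18.9 ± 1.78) and Psme2 (13 ± 1.45). Tap2 (4.01 ± 0.589), Psmb8 (3.13 ± 0.628), Tap1 (2.26 ± 0.429) and Psmb9 (1.51 ± 0.667) formed a lower tier. The ranges of neighbours overlapped within that tier and not above it. After TBI the order changed at 1 place: Psmb8 reached 11 ± 3.98 CPM per kb (n = 16) and stood above Tap2 at 6.52 ± 1.32. Psmb8 exceeded Tap2 per kb in 15 of 16 TBI animals, and in 1 of 14 shams. Tap1 (6.19 ± 1.74) and Tap2 came close together after TBI, with Tap1 the higher per kb in 5 of 16 TBI and 0 of 14 sham animals. Exon lengths came from GENCODE M21 and may differ from those the authors counted over.

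**Figure D2:**
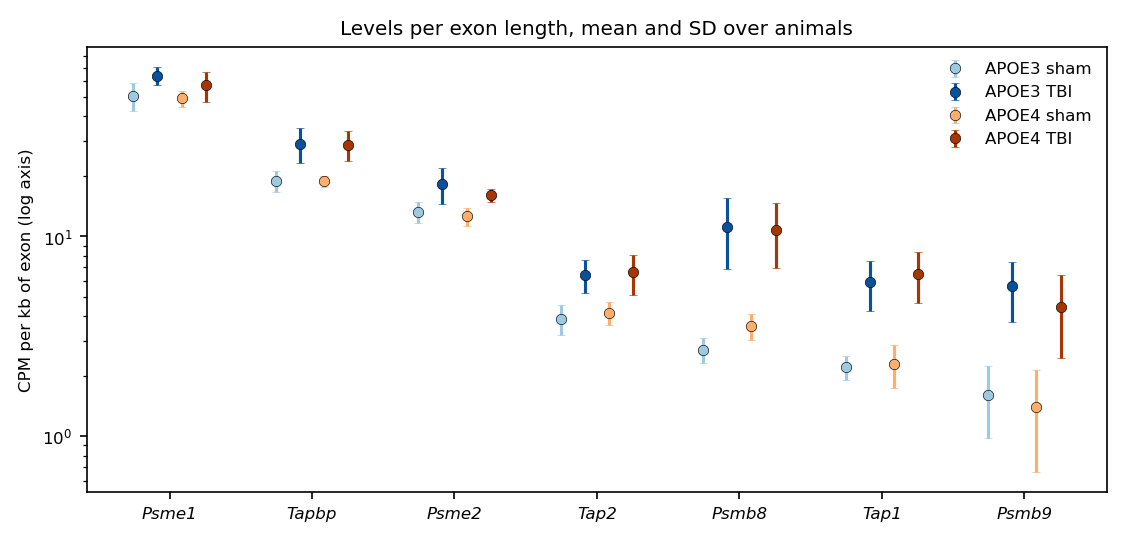
CPM per kb of exon (log axis) for each member, as mean and SD over the animals of each of the 4 groups, ordered by the sham mean. Psmb8 lies below Tap2 in both sham groups and above it in both TBI groups.

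Injury was then tested within each genotype. In APOE3 mice 7 of 7 members were higher (38% of all genes tested were, 34.3% were lower and 72.3% were called in either direction), with Psmb8 at 2.03 ± 0.24, Psmb9 at 1.82 ± 0.30, Tap1 at 1.39 ± 0.19, Tap2 at 0.76 ± 0.14, Tapbp at 0.62 ± 0.11, Psme2 at 0.48 ± 0.11 and Psme1 at 0.36 ± 0.10 on the log2 scale (adjusted p from 5e-08 to 0.00209). In APOE4 mice 6 of 7 were higher (33.9% of all genes tested were, 30.9% were lower and 64.8% were called in either direction): Psmb8 at 1.57 ± 0.23, Psmb9 at 1.54 ± 0.31, Tap1 at 1.48 ± 0.19, Tap2 at 0.62 ± 0.14, Tapbp at 0.60 ± 0.11 and Psme2 at 0.34 ± 0.12 (adjusted p from 4.24e-07 to 0.0145). Every TBI animal lay above every sham of its genotype for Psmb8, Psmb9, Tap1 and Tapbp in APOE3 (11.8% of all genes) and for Psmb8, Psme2, Tap1 and Tapbp in APOE4 (8.97%). Psme1 stood at 0.20 ± 0.10 in APOE4 and did not pass (adjusted p = 0.0667). It passed there without the fourth or the fifth APOE4 TBI animal (0.25 ± 0.10, adjusted p = 0.0251, and 0.24 ± 0.09, adjusted p = 0.0276) and with total-count scaling (0.29 ± 0.10, adjusted p = 0.019). In APOE4 the call of Psme2 was lost when the disputed libraries were placed by title (0.19, adjusted p = 0.172) and within each depth class alone, and that of Tap2 in the deep libraries alone (0.43, adjusted p = 0.0886). The log2 difference of Psmb9 in APOE4 was 2.62 ± 0.54 in the shallow and 1.06 ± 0.35 in the deep libraries alone, and passed in both (adjusted p = 0.00275 and 0.04). In APOE3 the calls of Psme1 (0.27, adjusted p = 0.16) and Psme2 (0.28, adjusted p = 0.273) were lost in the shallow libraries alone. The fourth and the fifth APOE4 TBI animals had the lowest mean levels of the members among all TBI animals, at 0.44 and 0.55 above the sham mean on the log2 scale.

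The interaction asked whether the injury effect differed between genotypes. No member passed with edgeR (0 of 7, and 0 of 7 at an unadjusted p under 0.05), nor with DESeq2 (0), in a table where 0% of all genes passed (99 at an unadjusted p under 0.05). The largest estimate was that of Psmb8, at -0.46 ± 0.33 (APOE4 minus APOE3, 95% interval -1.14 to 0.22, adjusted p = 0.999). The narrowest interval was that of Psme1, from -0.44 to 0.12 around -0.16, and those of Tapbp (-0.34 to 0.29) and Psme2 (-0.48 to 0.19) were similar. For Psmb9 the interval ran from -1.19 to 0.62 and for Tap1 from -0.46 to 0.64. Differences within these bounds were not excluded with this number of animals. The estimate for Psmb9 turned with depth, at 1.05 ± 0.77 in the shallow and -0.85 ± 0.50 in the deep libraries alone.

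**Figure D3:**
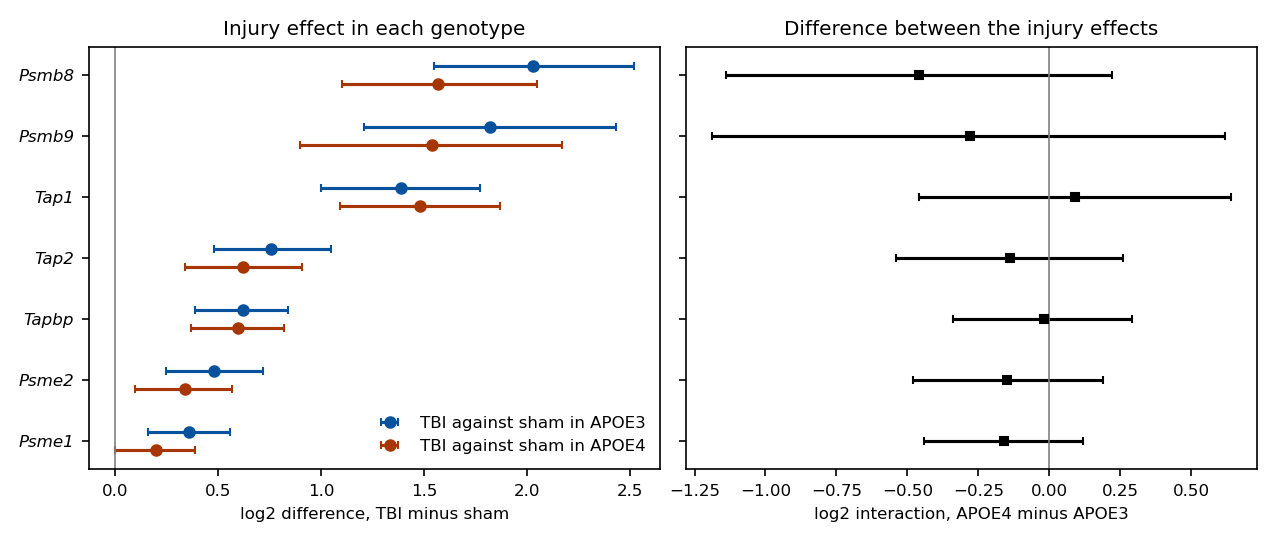
Left, log2 difference between TBI and sham with its 95% interval for each member, in APOE3 and in APOE4 animals; right, the difference between the 2 effects with its 95% interval. Psmb8, Psmb9 and Tap1 lie highest in both genotypes and every interval on the right includes 0.

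The genotypes themselves were compared next. Over both injury states 0 of 7 members differed between APOE4 and APOE3 with edgeR (2.01% of all genes tested did, 1.19% higher in APOE4 and 0.819% lower). It was also 0 of 7 at an unadjusted p under 0.05 (771 of all 5371 genes) and 0 of 7 with DESeq2 (159 of all genes). Estimates ran from -0.28 ± 0.20 for Psmb9 (95% interval -0.70 to 0.14) to 0.07 ± 0.13 for Tap1 (-0.20 to 0.33), and Tapbp stood at -0.01 ± 0.08 (-0.16 to 0.15). The counts were also 0 of 7 in sham animals (0.168% of all genes, 0.149% higher and 0.0186% lower) and 0 of 7 in TBI animals (0.447%, 0.335% higher and 0.112% lower), each with edgeR, at an unadjusted p under 0.05 and with DESeq2. Of all 5371 genes, 310 in sham and 599 in TBI animals had an unadjusted p under 0.05, and 20 and 57 passed with DESeq2. In sham animals Psmb8 ran from 3.19 through 4.41 to 5.06 CPM in APOE3 and from 4.26 through 6.02 to 7.05 CPM in APOE4. Of the 7 APOE4 shams 6 lay above the highest APOE3 sham, yet the log2 difference of 0.35 ± 0.27 did not pass (adjusted p = 1). The share of all genes with as little overlap was not counted. The fit shared 1 estimate of spread over the 4 groups. The coefficient of variation of Psmb8 was 14.1% in APOE3 and 15.2% in APOE4 shams, against 38.8% and 35.6% after TBI. Over 11 alternatives, among them a fit of the sham animals alone, this sham difference ran from 0.2 to 0.67. It passed in none of them (adjusted p of 0.475 or more). After TBI Psmb8 ran from 7.56 through 17.9 to 26.7 CPM in APOE3 and from 10.2 through 16.8 to 27.9 CPM in APOE4, where the groups overlapped almost fully. Psme2 after TBI ran from 10.5 through 18.2 to 22.9 CPM in APOE3 and from 14.1 through 15.6 to 17.5 CPM in APOE4 (log2 difference -0.21 ± 0.11, adjusted p = 0.495). The coefficient of variation of Psme2 was 20.7% in the APOE3 and 7.57% in the APOE4 TBI animals, and 12.5% in APOE3 without the animal at 10.5 CPM, whose fellows lay between 16.3 and 22.9 CPM.

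Other genes of the pathway were taken from lists, read against the median of 0.10 over all genes. Counts are read against the 48.2% of all tested genes called higher after TBI and the 45.9% called lower. Psmb5, Psmb6 and Psmb7, the constitutive counterparts of the immunoproteasome's catalytic subunits, and the 11 listed subunits of the rest of the proteasome core were not among the table's genes (0 of 3 and 0 of 11) and were not analysed here. Of 18 genes of the regulatory particle, which unfolds ubiquitinated proteins, 5 were tested. With TMM scaling 5 of 5 fell, by a median of 0.08 (Psmc6 -0.15, Psmc5 -0.13, Psmd7 -0.08 and Psmc3 -0.08), but with total-count scaling 3 of 5 were positive, 0 passed and the median was 0.01. Psme3, which encodes an activator of nuclear proteasomes, was the only one of 12 further activator, inhibitor and assembly genes tested. It stood at -0.10 ± 0.03 (adjusted p = 0.00149) with TMM and did not pass with total-count scaling (-0.01).

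Downstream of the transporter, 9 of 11 listed MHC class I heavy-chain genes were tested and 9 rose, by a median log2 difference of 1.60. H2-K1, a classical heavy chain that presents peptides to cytotoxic T cells, went from 46.8 ± 4.83 CPM in sham to 159 ± 50.8 after TBI (1.75 ± 0.13), and H2-D1 from 45.5 ± 6.18 to 153 ± 46.4 (1.73 ± 0.13). The near-identical H2-Q7 (2.35) and H2-Q6 (2.23) can share reads and are uncertain. Of 14 other loading and trimming genes 6 were tested, of which 4 rose and 2 fell. B2m, the light chain of class I molecules, rose by 1.31 ± 0.10, Erap1, a peptidase that trims peptides in the endoplasmic reticulum, by 0.47 ± 0.08, the cytosolic aminopeptidase Lap3 by 0.41 ± 0.05, and Tapbpl, a tapasin relative that also edits peptides, by 0.27 ± 0.07. The falls of Nrd1 and Blmh were lost with total-count scaling, where 4 genes were higher and 0 lower. Of 20 regulators in the interferon and NLRC5 list 12 were tested and 12 rose, by a median of 0.78. Irf7, a regulator of type I interferon responses, rose by 1.98 ± 0.21, Nlrc5, the transactivator of class I genes, by 1.87 ± 0.22 from 1.82 ± 0.885 to 7.33 ± 2.81 CPM, Irf8 by 1.59 ± 0.15 and the interferon-gamma receptor subunit Ifngr1 by 0.82 ± 0.07. Ifng and Ifnb1 were not among the listed genes. All of these list genes were selected by the authors on the same injury contrast, in which 48.2% of the tested genes were called higher and 45.9% lower.

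**Figure D4:**
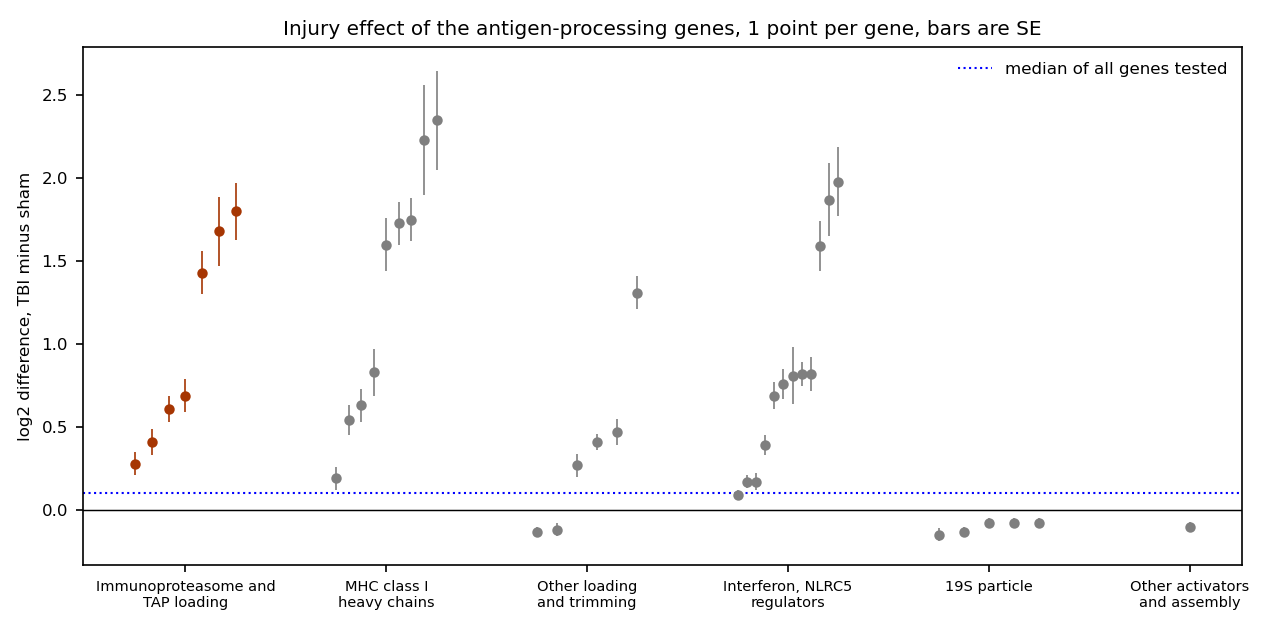
Log2 difference between TBI and sham (vertical axis) with its SE for the tested genes of each list, 1 point per gene, with a dotted line at the median of all genes tested. The members span 0.28 to 1.80, MHC class I heavy chains reach 2.35, and the 5 regulatory-particle genes lie just below 0 with this scaling.

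Injured animals differed among themselves, and the members moved together in doing so. The mean log2 CPM of the 7 members, taken against the sham mean, ran from 0.44 through a median of 0.89 to 1.38 in the 16 TBI animals and from -0.24 through -0.03 to 0.25 in the 14 shams, without overlap. Across the 16 TBI animals the pairwise Pearson correlations between members other than Psme2 lay between 0.54 and 0.87, and those with Psme2 between 0.11 and 0.37. In the 14 shams all pairs lay between -0.25 and 0.65. The animals share scaling factors and the low counts of Psmb9, and the correlations are given as descriptions. The tested non-members most like the members' mean over the 16 TBI animals were H2-K1 (Pearson r = 0.96, Spearman rho = 0.93), H2-D1 (0.96 and 0.93), the interferon-induced GTPase gene Gbp2 (0.95 and 0.88), the class I gene H2-Q4 (0.94 and 0.92) and Ninj1 (0.94 and 0.91), which encodes a membrane protein that ruptures the cells in which it clusters. Over the 14 shams the Pearson r of the same genes was 0.37 for H2-K1, 0.58 for H2-D1, 0.32 for Gbp2, 0.74 for H2-Q4 and -0.16 for Ninj1.

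**Figure D5:**
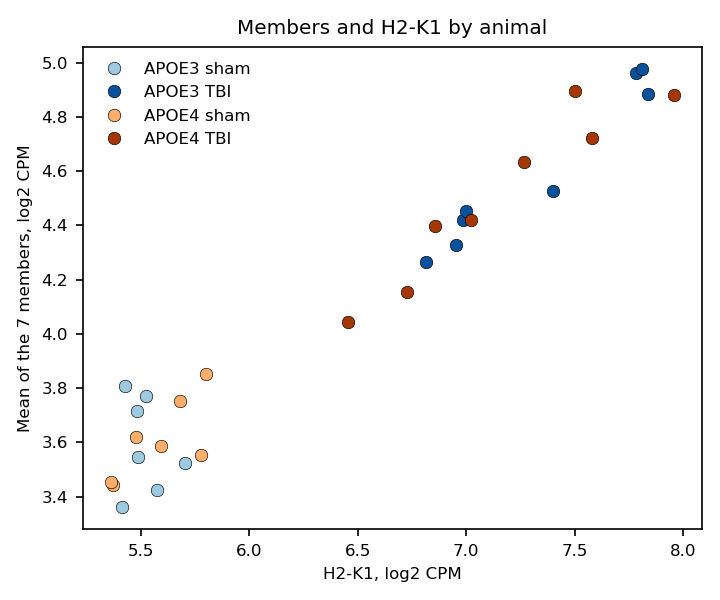
Mean log2 CPM of the 7 members (vertical axis) against log2 CPM of H2-K1 (horizontal axis), with 1 point per animal coloured by group. The TBI animals of both genotypes lie along 1 band above the shams, which form a cluster.

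Markers of other cells moved with injury beside the members, and their part in these results was not tested. The authors had selected all genes of the table on this injury contrast. Of those tested, 48.2% were called higher, 45.9% lower and 94.1% in either direction, so counts of markers called say little alone. The summed level of 8 of 8 microglial markers ran from 682 to 939 CPM in sham and from 1195 to 2212 CPM after TBI, with 8 of 8 called higher (median log2 difference 1.00, led by Fcrls at 1.44 and Aif1 at 1.38). Astrocyte markers summed to 4356 to 5127 CPM in sham and 6043 to 10909 CPM after TBI, with 7 of 7 higher. Neuronal markers summed to 14383 to 16422 CPM in sham and 9877 to 14242 CPM after TBI, with 5 of 5 tested markers lower (median -0.30), or 4 of 5 with total-count scaling (median -0.20). Of 7 markers of monocytes and border macrophages 4 were tested and 4 were higher, at 7.55 to 22.3 CPM summed in sham and 15.4 to 56 CPM after TBI. For T and NK cells 3 of 15 markers were tested and summed to 3.65 to 10.3 CPM in sham and 4.2 to 16.3 CPM after TBI: Ccl5 (3.98) and Trac (1.17) were higher and Trbc2 (-1.07) lower. Cd3e, Cd8b1, Cd4, Gzmb and Prf1 were not among the listed genes. Of dendritic cell markers 2 of 5 were tested, at 11.5 to 19.3 CPM summed in sham and 16.2 to 40.4 CPM after TBI, with Itgax higher (4.19) and Flt3 lower (-0.44). The endothelial markers Cldn5 (0.32) and Cdh5 (0.30), 2 of 6 listed, were higher and summed to 60.7 to 87.7 CPM in sham and 71.4 to 139 CPM after TBI. Single genes stood for B cells (Igkc, 0 to 1.57 CPM in sham with 2 libraries at 0, and 3.52 to 62 CPM after TBI) and neutrophils (S100a8, 0 to 1.29 CPM in sham with 5 libraries at 0, and 0.561 to 10.5 CPM after TBI).

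The letter M or F in the animals' titles, which the labels do not spell out, was a covariate of the fits. Between the letters 0 of 7 members differed with edgeR (16.7% of all genes tested did, 10.1% higher in F and 6.59% lower). It was also 0 of 7 at an unadjusted p under 0.05 (1749 of all 5371 genes) and 0 of 7 with DESeq2 (1043 of all genes). Estimates for F against M ran from -0.15 ± 0.20 for Psmb9 (95% interval -0.57 to 0.27) to 0.15 ± 0.10 for Tap2 (-0.05 to 0.34). The injury effect did not pass as different between the letters for any member with edgeR (0 of 7, with 0 at an unadjusted p under 0.05), nor with DESeq2 (0), and for 0% of all genes (461 at an unadjusted p under 0.05). Tapbp had the smallest p of the members there, with a rise larger in F by 0.27 ± 0.15 on the log2 scale (95% interval -0.03 to 0.57, adjusted p = 0.596).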

How the data were processed

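The authors deposited raw read counts per gene for 32 libraries, with their own log2 coefficient and p-value for TBI against sham, per the file headers; every p-value there is at most 0.0502, and neither column is used as a result. Subread 1.5.0, edgeR 3.14.0 and mm10 stand in the submitters' processing notes, while annotation and strand setting are not given in the sources used here. Groups came from the source names. The libraries E2073 and F1372 were left out because titles and source names disagreed. Animal numbers differ in every title, so each library is read as 1 animal.

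The fits used edgeR 4.0.16 in R 4.3.3, with TMM, filterByExpr and quasi-likelihood F-tests (tested on simulated data), which dropped 211 genes for low counts. Injury and genotype effects came from an additive model with the title letter, and within-group contrasts and the interaction from 1 model of the 4 group means with the title letter. Adjusted p-values are Benjamini-Hochberg values over all 5371 genes, with a threshold of 0.05. Intervals used 26 residual degrees of freedom throughout, those of the additive model, although the model of the 4 group means leaves fewer. Each edgeR SE was derived from the log2 difference and its F statistic. Log2 CPM used a prior count of 1. Every member is named, up to 4 genes per other list by size of change, and the 5 genes most like the members in TBI animals; Csf1r and Slc1a3 were named after their values were seen. Members and lists were chosen with earlier results of these data known. Ratios of members were tested by permutation (SciPy 1.17.1, NumPy 2.4.6), a test chosen after the data were seen. Because TMM centres the listed genes, a direction holds only against them. The alternatives were DESeq2 1.42.0, RLE and total-count scaling, no filter, no title letter, both placements of the disputed libraries, the depth class as a covariate, each depth class alone, smaller fits and each animal left out.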

Additional observations from a re-analysis of the deposited data

Results flagged for a closer look

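Psmb8 in APOE3 sham animals had 1 animal apart from the rest, at 3.19 CPM on 7 counts, where the other 6 lay between 4.3 and 5.06 CPM. It was the only 1 of 28 combinations of member and group to stand apart in this way, and chance sets about 1 in 20 groups apart, since the limit used is a 95% critical value (Dixon's test).

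The library E2073, titled as an APOE4 sham but given as APOE4 TBI by its source name, entered no comparison. With all 32 libraries scaled together, 5 members lay above the highest of the 14 shams there. Tap1 and Psmb9 lay within the sham range and below the lowest TBI animal. The share of all genes above the highest sham in this library was not counted. Psme1 stood at 88.7 CPM, above the highest TBI animal as well (82.7). Psme2 stood at 22 CPM against a highest sham of 15.5, Tapbp at 72.4 CPM against 64.4, and both lay within the TBI range. Tap2 at 18.1 CPM and Psmb8 at 7.45 CPM lay just above the highest shams of 17.7 and 7.05, and Psmb8 just below the lowest TBI animal at 7.55.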

How the results depend on the processing

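Over 10 alternatives to the fit of injury over both genotypes, 6 to 7 of the 7 members were called, and 7 with each animal left out in turn. In APOE3 the number was 5 to 7 over 11 alternatives and 7 with each animal left out. In APOE4 it was 4 to 7 over 11 alternatives and 6 to 7 with each animal left out. The main fits called 94.1% of all genes in either direction over both genotypes, 72.3% in APOE3 and 64.8% in APOE4. The authors had selected all of these genes on the injury contrast. Shares of all genes under the alternatives are not given here, so these counts alone say little about the members. The genotype, interaction and title-letter comparisons gave 0 members in every alternative run. Over the 10 alternatives the injury differences ran from 1.75 to 1.9 for Psmb8, 1.51 to 2.05 for Psmb9, 1.36 to 1.53 for Tap1, 0.64 to 0.79 for Tap2, 0.55 to 0.7 for Tapbp, 0.32 to 0.5 for Psme2 and 0.21 to 0.37 for Psme1. The interaction of Psmb8 ran from -0.69 to -0.34, and for the other 6 members its sign turned under at least 1 alternative, with the widest range for Psmb9 (-0.85 to 1.05). In the shallow libraries alone the calls lost were Psme2 over both genotypes (0.32, adjusted p = 0.0547), Psme1 (0.27, adjusted p = 0.16) and Psme2 (0.28, adjusted p = 0.273) in APOE3, and Psme2 in APOE4 (0.35, adjusted p = 0.168). In the deep libraries alone Psme2 (0.29, adjusted p = 0.115) and Tap2 (0.43, adjusted p = 0.0886) in APOE4 were lost, where fewer animals entered the fit. Placing the disputed libraries by title lost Psme2 in APOE4 (0.19, adjusted p = 0.172), and placing them by source name added Psme1 there (0.25, adjusted p = 0.0335). Total-count scaling shifted the median injury difference of all genes by 0.09 and also added Psme1 in APOE4. No called member reversed. No paired analysis was possible because the labels give no replicate numbers that tie animals of different groups. Depth limits Psmb9 most, at 1 to 20 counts per sham library.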

Other observations

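In the same library E2073 the other members did not exceed the shams: Tap1 stood at 6.03 CPM, within the sham range of 4.04 to 8.78 and below the lowest TBI animal at 11.7, and Psmb9 at 2.13 CPM on 6 counts, within the sham range of 0.337 to 3.52 and below the lowest TBI animal at 2.46. The library F1372, a sham by both labels but APOE3 by its title and APOE4 by its source name, lay within the range of the 14 shams for all 7 members, with Psmb8 at 3.86 CPM, Tap1 at 7.08, Tapbp at 55.7 and Psme1 at 49.6.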
